A study of Mus musculus with 12 samples.

Results

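Complement and coagulation are cascades of plasma proteins in which an inactive precursor is cut into an enzyme that cuts the next precursor, and the genes described here encode their main components. The gene list held 40 members, 21 of the complement system and 19 of coagulation and fibrinolysis, chosen by symbol from a count table of 55335 mouse genes, and all 40 were present. Each member was compared between mice with and without *Tshr*, the receptor of thyroid-stimulating hormone (TSH), in myeloid cells, once in bone-marrow-derived macrophages (BMDMs) and once in whole liver, with the complement and the coagulation members kept apart.

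Hepatocytes make most complement and clotting proteins of the blood, and many of these genes belong to the acute-phase response of the liver. Macrophages make a smaller set locally, such as the central complement component *C3* and factor B of the alternative pathway, and they carry the receptors for the released fragments C3a and C5a. Stimulated monocytes and macrophages can also display tissue factor, the membrane protein that starts coagulation, while thrombomodulin and protein S belong to the anticoagulant protein C system.

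The study asked how TSH acts on macrophages and on insulin-responsive tissue when myeloid cells lack *Tshr*. The f/f group carried floxed alleles only (*Tshr*f/f), and the MKO group carried the same alleles with *Lyz2*-Cre (*Tshr*f/f,*Lyz2*-Cre), with 3 libraries in each group of each tissue. BMDMs came, per the labels, from male littermates 6 weeks old (the general BMDM protocol of the study gives a wider range of ages), were differentiated for 7 days in 10 ng/mL M-CSF and were all stimulated with 1 ng/mL TSH for 24 h, so no library without TSH enters the comparison. Livers came from male littermates that were 6 weeks old when they began a high-fat diet (HFD), which lasted 9 weeks, and that were fasted for 8 h and given insulin (1.5 U/kg) 5 min before they were killed. *Lyz2*-Cre acts in myeloid cells, so the hepatocytes of an MKO liver keep their floxed alleles. The labels give every library its own sample ID but do not say that the 3 BMDM libraries of a group were separate cultures from separate mice, and p-values measure the spread between these libraries.

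The libraries held 28962878 to 40954211 counts, and 3 counts in a library correspond to 0.0733–0.104 CPM, the counts of a gene scaled to the TMM-corrected total of its library, in which levels are given. *Tshr* itself had 0, 0 and 2 counts in the f/f BMDMs, 0, 0 and 5 counts in the MKO BMDMs and 0 in every liver, so the deletion could not be checked from these counts. A supplementary table of the study lists the counts of these liver libraries under the opposite genotype headings. The labels were followed here, and every liver direction is that of "livers labelled MKO" against "livers labelled f/f". BMDM f/f library 3 stood apart, with a TMM factor of 0.738 against 0.993–1.11 in the other BMDM libraries. Liver f/f library 1 had the lowest liver factor, 0.891, and was the highest of the 6 livers for 13 of 21 complement members and 13 of 19 coagulation members.

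Most members had higher levels in liver than in BMDMs. Per kilobase of exon, the highest mean levels over the 6 livers were those of the fibrinogen chains *Fga* (2380 CPM per kb), *Fgg* (2160) and *Fgb* (1934) and of *C3* (2124), followed by plasminogen, *Plg* (720.1), and kininogen, *Kng1* (603.7). The lowest were *C5ar1* (0.735) and the A subunit of factor XIII, *F13a1* (0.156). In the BMDMs the order was another one: *Cfb* (1016), *C3* (446.7), properdin, *Cfp* (189.1), *C3ar1* (177.1), factor X, *F10* (165.5), *C5ar1* (128.3) and factor VII, *F7* (62.4) had the highest means. TMM factors were computed within each tissue, so CPM values of liver and BMDMs share no common TMM correction. In these CPM, 17 complement and 13 coagulation members were higher in every liver than in every BMDM library. The share of all genes with that order is not given here, so these counts have no background of their own. The reverse held for *Cfp*, *C3ar1*, *C5ar1*, *F3* and *F13a1*, and the ranges of the tissues met for *Cfb*, *F7*, *F10*, *Pros1* and *Thbd*. Tissue, culture and treatment cannot be told apart in these differences.

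**Figure D1:**
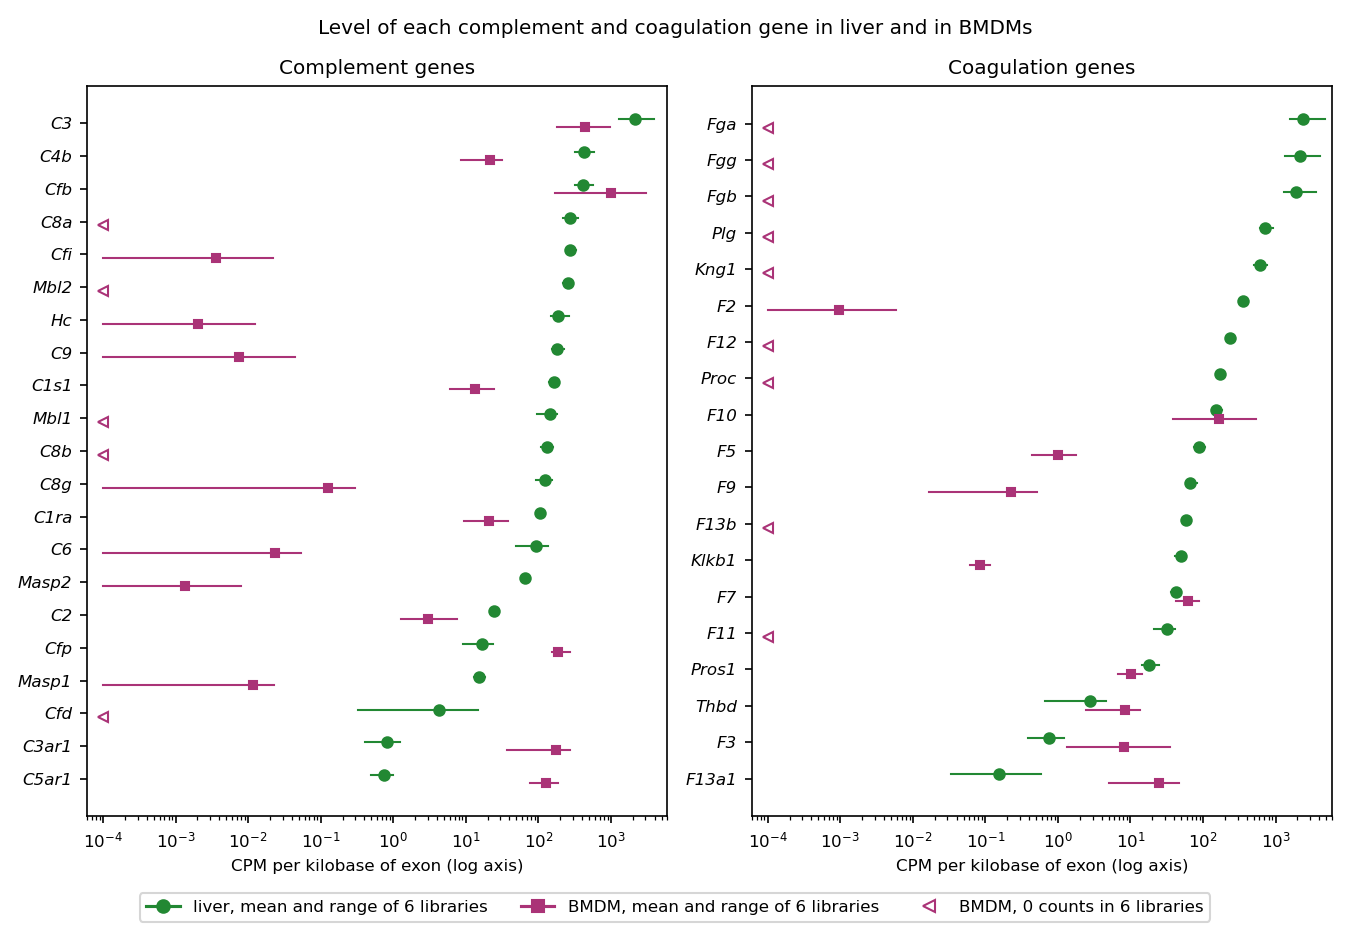
Level of the 21 complement genes (left) and the 19 coagulation genes (right) on a log axis of CPM per kilobase of exon, with the mean as a point and the range of 6 libraries as a line, for liver (circles) and BMDMs (squares). Lines that reach the left edge begin at 0 counts, open triangles mark genes at 0 in all 6 BMDM libraries, and *Cfb* is the complement gene whose BMDM mean (1016) lies above its liver mean (406.5) while the ranges meet.

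In the BMDMs, 9 complement and 9 coagulation members had enough counts to be tested. Of the 12 complement members that did not, 5 had 0 counts in all 6 libraries and none had more than 17 counts in a library. These were the terminal components *Hc*, *C6*, *C8a*, *C8b*, *C8g* and *C9*, the lectin-pathway genes *Mbl1*, *Mbl2*, *Masp1* and *Masp2*, the inhibitor *Cfi* and the protease *Cfd*. Among the 10 coagulation members left out, 9 were at 0 in all libraries and *F2*, prothrombin, had 1 count in 1 library. They included the fibrinogen chains, *F11*, *F12*, *F13b*, *Kng1*, *Plg* and *Proc*. The hepatocyte markers *Alb*, *Ttr*, *Cps1*, *Serpina1c* and *Cyp2e1* were at 0 in every BMDM library, and the 6 markers on the list summed to at most 0.0783 CPM.

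Promoter windows are shown for *C3*, *Fga*, *Fgb*, *C9* and *F9* because they hold the same short motif. The RefSeq promoter table (GRCm38.p6) matched 31 of the 40 members; *C2*, *C4b*, *Cfb*, *Cfi*, *Kng1*, *Masp1*, *Plg*, *Proc* and *Thbd* were not matched. The motif of the C/EBP factors, liver and macrophage regulators, searched as TTGCNNAA on both strands in the 250 bases before the gene start, stood before *C1s1*, *C3*, *C9*, *F9*, *F11*, *Fga*, *Fgb* and *Klkb1*, 8 of 31 members, against 10.8% of the 27018 genes in that table. The motif was chosen after expression values had been seen, and a match is a description of the letters. The *C3* window lies at chr17:57228164-57228191 and the *Fgb* window at chr3:83049926-83049953, both on the minus strand. Those of *Fga*, at chr3:83026008-83026035, of *C9*, at chr15:6445204-6445231, and of *F9*, at chrX:59999430-59999457, lie on the plus strand. Capitals mark the motif, 5′ to 3′ on the strand of the gene:
C3: ggaaactatgTTGCGAAAttttgggcag
Fga: ctacagagaaTTGAGCAAgagtttctgg
Fgb: tgggaagatgTTGCTCAAatgataaagc
C9: ttttggtttaTTGCATAAtgacactttg
F9: gccctgacgcTTGCACAAtctcctaaca
In the *Fga* window the motif is read on the other strand. TGACGTCA (CRE) and the consensus motifs of ISRE, HNF1 and NF-kB were found before 0 of the 31 members, against 1.77%, 3.46%, 0.133% and 8.24% of all genes, which says only that these letters are not in the windows. GAGGAA (PU.1) stood before *F7*, *F13a1* and *Fgb*, 3 of 31 members, against 25.9% of all genes.

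In the TSH-treated BMDMs, the complement genes *Cfb*, *C3*, *C2*, *C1ra* and *C1s1* had lower mean values in MKO than in f/f libraries, and *C3ar1*, the receptor of C3a, had a higher one. No member passed an adjusted p of 0.05 in edgeR's quasi-likelihood test, nor did any of the 15372 genes tested, where the lowest adjusted p was 0.218. At an unadjusted p under 0.05, *Cfb*, *C1ra*, *C3*, *C2* and *C1s1* were lower and *C3ar1* was higher, 6 of 9 complement members, against 17.9% of all genes tested (10.2% lower, 7.73% higher). *F3* and *F10* were lower and *Thbd* and *Pros1* higher, 4 of 9 coagulation members. Of these, 5 complement and 3 coagulation members also differed at least 2-fold, the thresholds of the study, against 8.82% of all genes. With DESeq2, at an adjusted p under 0.05, 9 of the 18 members (all of the 10 just named except *C1s1*) were called, against 7.93% of 15336 genes. The groups did not overlap for 5 complement and 4 coagulation members, against 28.7% of all genes. The median log2 fold change, MKO over f/f, was −0.94 over the complement members, 0.30 over the coagulation members and 0.01 over all genes. Over the 23 other complement genes tested, it had the opposite sign from that of the complement members, 0.37, with 16 above 0 and 7 below. Without f/f library 3, 5 complement and 4 coagulation members had an unadjusted p under 0.05. The share of all genes in that fit is not given here, so this count has no background of its own.

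**Figure D2:**
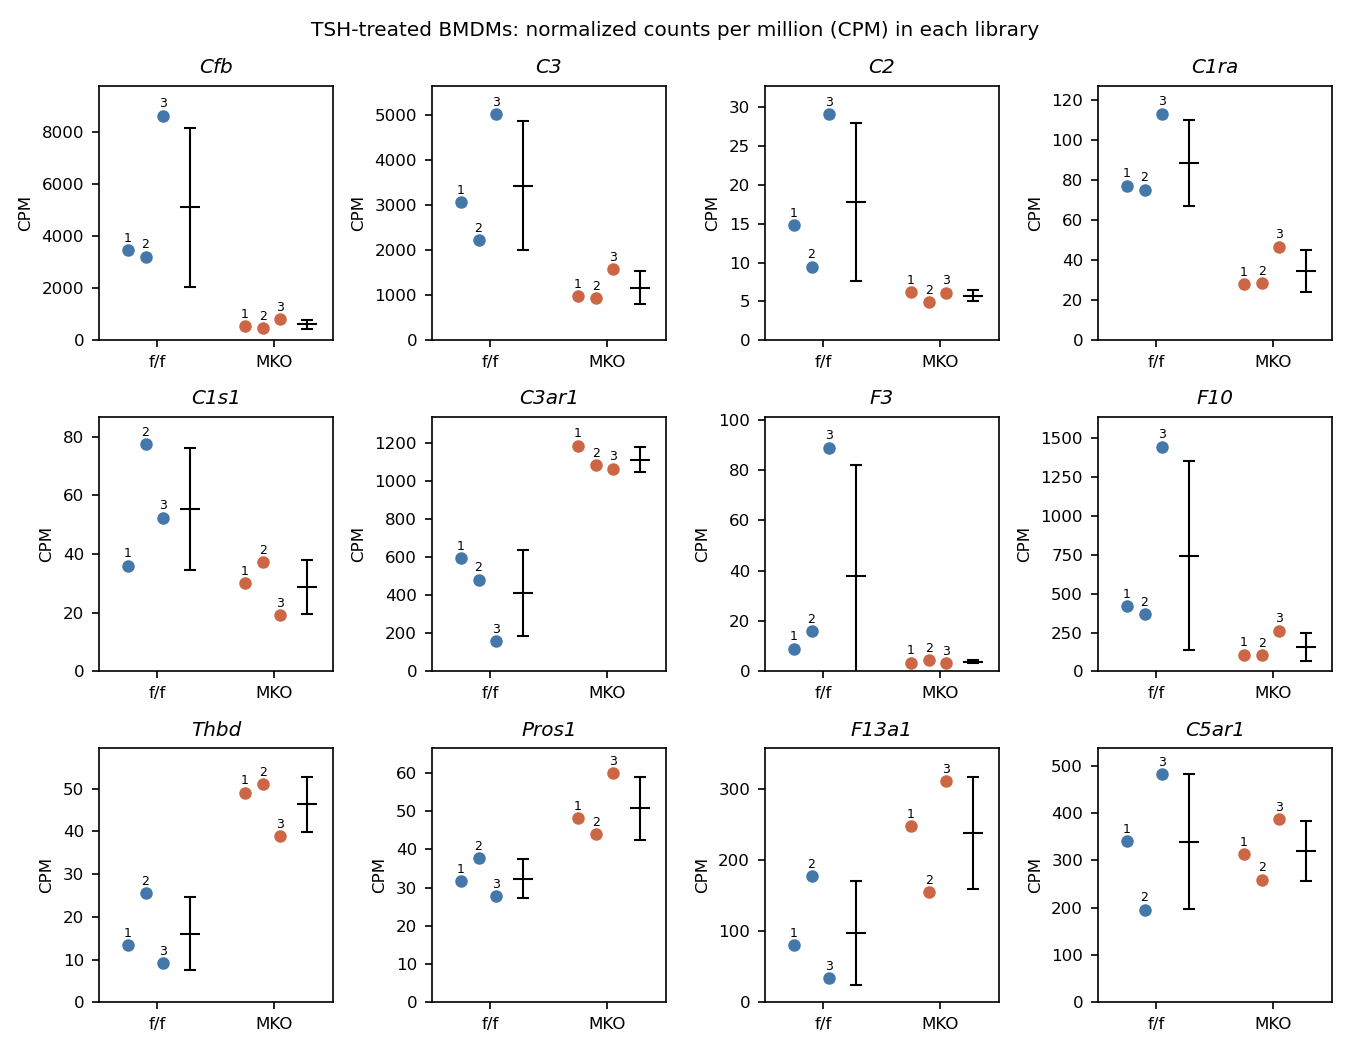
Normalized CPM in each BMDM library for 12 complement and coagulation genes, with the 3 f/f libraries on the left and the 3 MKO libraries on the right of each panel (small digits give the library number), and the group mean with its SD as a black bar beside the points, cut off at 0. *Cfb* lies between 482.5 and 824.1 CPM in MKO and between 3227 and 8651 CPM in f/f, whereas the groups of *C1s1*, *F13a1* and *C5ar1* overlap.

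Factor B, encoded by *Cfb* (chr17:34856374-34862518, minus strand), is the protease of the alternative-pathway C3 convertase. It had 3484, 3227 and 8651 CPM in the f/f libraries and 558, 483 and 824 CPM in the MKO libraries. Every MKO library was below every f/f library, and f/f library 3 was the highest. The means were 5121 ± 3060 and 621.5 ± 179.4 CPM (SD, n = 3 each). The log2 fold change was −3.04 (SE 0.49), an 8.24-fold difference (adjusted p = 0.218 in edgeR, rank 33 by p among the 15372 genes tested), and it was −2.44 without f/f library 3.

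*C3* (chr17:57203970-57228136, minus strand) encodes the component on which all complement pathways converge. Its values were 3061, 2219 and 5006 CPM in f/f and 977, 939 and 1582 CPM in MKO. The groups did not overlap. The log2 fold change was −1.56 (SE 0.39, adjusted p = 0.218 in edgeR, rank 423) between means of 3429 ± 1430 and 1166 ± 360.4 CPM. Without f/f library 3 it was −1.18. *Cfp*, which encodes properdin, the stabilizer of the alternative convertase, had 274–313 CPM in f/f and 269–470 CPM in MKO, and its log2 fold change was 0.29 (SE 0.24). All complement members together took 0.739–1.11% of the counts of an f/f library and 0.354–0.462% of an MKO library. This total mostly follows *Cfb* (0.346–0.638% in f/f, 0.0537–0.0835% in MKO) and *C3* (0.247–0.37% and 0.105–0.16%), not the members as a set. *C3ar1* went the other way, with 0.0117–0.0591% in f/f and 0.108–0.129% in MKO.

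*C2* and *C1ra*, the proteases of the classical pathway, followed the same direction at much lower levels. *C2* (chr17:34862604-34898265, minus strand), which lies directly upstream of *Cfb*, had 14.8, 9.48 and 29.03 CPM in f/f and 6.19, 4.93 and 6.15 CPM in MKO. The MKO libraries were all below the f/f libraries and varied less among themselves. Their difference was −1.62 on the log2 scale (SE 0.42, adjusted p = 0.218 in edgeR, rank 486), from 17.8 ± 10.1 to 5.76 ± 0.712 CPM, and it was −1.08 without f/f library 3. The gene bodies of *C2* and *Cfb* do not overlap in the GENCODE annotation.

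For *C1ra* (chr6:124512405-124523443), which encodes a C1r protease of the C1 complex, the values were 77.3, 75.4 and 113 CPM in f/f and 28.2, 28.8 and 46.9 CPM in MKO. The groups were separate here too. *C1ra* was lower by a log2 fold change of −1.36 (SE 0.27, adjusted p = 0.218 in edgeR, rank 126), with means of 88.7 ± 21.4 and 34.6 ± 10.6 CPM.

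The neighbouring *C1s1* encodes the C1s protease. It had 36.0, 77.3 and 52.3 CPM in f/f and 30.0, 37.3 and 19.1 CPM in MKO, so the groups overlapped. The means were 55.2 ± 20.8 and 28.8 ± 9.17 CPM, at a log2 fold change of −0.94 (SE 0.35, adjusted p = 0.258 in edgeR, rank 2016). This unadjusted call was kept in only 2 of the 6 fits that each left out a library, and without f/f library 2 the log2 fold change was −0.62. It was lost without f/f library 2 or 3 and without MKO library 1 or 3. The fibroblast marker *Col1a1*, a collagen chain, had 389.2, 1116 and 365.0 CPM in f/f and 325.2, 375.9 and 214.8 CPM in MKO, and was, like *C1s1*, highest in f/f library 2 and lowest in MKO library 3. Its part in the result for *C1s1* was not tested. *C4b*, whose product joins with that of *C2* in the classical convertase, had 49.2–182 CPM in f/f and 74.7–158 CPM in MKO, with a log2 fold change of −0.01 (SE 0.51). *C1ra*, *C1s1* and *C4b* have near-identical neighbours (*C1rb*, *C1s2* and *C4a*), and how the counting shared reads between such copies is not given in the sources used here.

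*C3ar1* (chr6:122847138-122856161, minus strand), the C3a receptor, stood on the other side. It had 595, 483 and 158 CPM in f/f and 1188, 1084 and 1066 CPM in MKO. All MKO libraries were above all f/f libraries, and f/f library 3 was the lowest. The means were 412.2 ± 227.2 and 1113 ± 66.2 CPM and the log2 fold change was 1.43 (SE 0.47, adjusted p = 0.236 in edgeR, rank 1383). It was 1.05 without f/f library 3, and the unadjusted p was 0.0547 without MKO library 1.

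*C5ar1*, the C5a receptor, had 341, 196 and 483 CPM in f/f and 313, 259 and 387 CPM in MKO. The MKO values lay within the f/f range. Its means were 339.7 ± 143.3 and 319.8 ± 64.3 CPM, and the log2 fold change was −0.09 (SE 0.35, adjusted p = 0.904 in edgeR), with a sign that turned under other settings.

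Of the coagulation members, tissue factor, *F3* (chr3:121723537-121735048), had 9.01, 16.0 and 88.8 CPM in f/f and 3.53, 4.48 and 3.40 CPM in MKO. The groups did not overlap, and f/f library 3 was far above the other libraries. The means were 37.9 ± 44.2 and 3.80 ± 0.592 CPM, with a log2 fold change of −3.32 (SE 0.89, adjusted p = 0.218 in edgeR, rank 617). Without f/f library 3 the log2 fold change was −1.71.

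*F10* (chr8:13037308-13056676) encodes factor X, which the complex of tissue factor and factor VII activates. In f/f it had 422, 368 and 1448 CPM and in MKO 107.4, 105.5 and 261.5 CPM. Every MKO value was below every f/f value. From 746.0 ± 608.9 to 158.1 ± 89.5 CPM the log2 fold change was −2.24 (SE 0.67, adjusted p = 0.225 in edgeR, rank 989). It was −1.33 without f/f library 3, and the unadjusted p reached 0.0517 and 0.0522 when MKO library 1 or 2 was left out. *F7*, the neighbour of *F10* on chromosome 8, had 98.5–138 CPM in f/f and 80.0–165 CPM in MKO, with a log2 fold change of −0.06 (SE 0.30).

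Thrombomodulin, *Thbd* (chr2:148404466-148408188, minus strand), the cell-surface partner with which thrombin activates protein C, had 13.3, 25.6 and 9.14 CPM in f/f and 49.0, 51.0 and 38.9 CPM in MKO. All MKO libraries were higher. The log2 fold change was 1.53 (SE 0.38, adjusted p = 0.218 in edgeR, rank 421) between 16.0 ± 8.56 and 46.3 ± 6.495 CPM. Per kilobase of exon, the ratio of *F3* to *Thbd* was 0.996, 0.920 and 14.3 in the f/f libraries and 0.106, 0.129 and 0.129 in the MKO libraries.

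Protein S, encoded by *Pros1*, is the cofactor of activated protein C and also a ligand of the receptor *Mertk*. It had 31.6, 37.8 and 27.7 CPM in f/f and 48.2, 43.9 and 59.9 CPM in MKO. The groups were separate at a small size of difference: 0.65 on the log2 scale (SE 0.17, adjusted p = 0.218 in edgeR, rank 640), with means of 32.4 ± 5.06 and 50.7 ± 8.28 CPM.

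*F13a1*, the catalytic A subunit of factor XIII and a gene of the monocyte list, had 80.6, 178 and 33.8 CPM in f/f and 248, 155 and 312 CPM in MKO. MKO library 2 was below f/f library 2, so the groups overlapped. The means were 97.4 ± 73.6 and 238.1 ± 78.6 CPM, at a log2 fold change of 1.29 (SE 0.60, adjusted p = 0.311 in edgeR). Without f/f library 2 it was 2.06, at an unadjusted p of 0.00687, and without f/f library 3 it was 0.88. *F5* had 3.31, 13.3 and 3.61 CPM in f/f and 9.14, 4.19 and 11.7 CPM in MKO, with a log2 fold change of 0.30 (SE 0.65). *F9* and *Klkb1* were low, with at most 53 and 20 counts in a BMDM library, and had log2 fold changes of 1.75 (SE 0.89) and −0.13 (SE 0.41). The groups of all 3 overlapped.

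The cell make-up of the cultures was read from fixed marker lists. The 6 macrophage markers summed to 5906–6444 CPM in f/f and 5495–7014 CPM in MKO, and 0 of 6 had an unadjusted p under 0.05. The 4 monocyte markers summed to 446.3–1060 CPM in f/f and 298.4–585.3 CPM in MKO: *Ly6c2* was lower in MKO, *Ccr2* was higher, and the other two did not pass that threshold. Of the neutrophil markers, 4 of 7 could be tested; they summed to 7.33–48.8 CPM in f/f and 4.99–11.5 CPM in MKO, with *S100a8* and *Camp* lower and *Retnlg* higher. The 5 dendritic cell markers summed to 10.2–17.5 and 6.87–8.33 CPM, with 1 of them lower. The 3 adipocyte markers, with *Plin1* at 0, summed to 30.4–109.1 and 125.6–181.1 CPM, with 1 of them higher. The stellate and fibroblast markers, with *Lrat* at 0, summed to 521.2–1344 CPM in f/f and 322.7–553.8 CPM in MKO, and 0 of the 3 tested had an unadjusted p under 0.05. The Kupffer cell markers, with *Clec4f* at 0, summed to 1293–1668 and 1076–1506 CPM, and *Timd4* was lower. The part of these differences in the results for the members was not tested, and in bulk RNA a smaller number of cells of a type and less RNA per cell cannot be told apart.

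Of 36 other complement genes in the table, 23 were tested in the BMDMs; 3 were lower and 5 higher at an unadjusted p under 0.05, beside the shares of all genes given above. Those with the lowest p were *C1rb*, the copy of *C1ra* (8.81, 9.62 and 13.4 CPM in f/f, 3.89, 3.79 and 5.35 CPM in MKO, log2 fold change −1.29, SE 0.25), and *C5ar2*, the second C5a receptor (3.31, 2.41 and 1.27 against 7.49, 5.73 and 7.76 CPM, 1.58, SE 0.37). *C1rl*, a C1r-like protease, had a log2 fold change of −1.38 (SE 0.33).

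Among 32 other coagulation and fibrinolysis genes, 22 were tested, and 3 were lower and 2 higher. *Procr*, the protein C receptor, had 77.5, 61.6 and 948.1 CPM in f/f and 8.85, 9.55 and 10.9 CPM in MKO (log2 fold change −5.21, SE 1.23), with f/f library 3 far above the others. *Tgm2*, a transglutaminase, was lower (−1.31, SE 0.40) and *Gas6*, a relative of protein S, was higher (2.41, SE 0.59). Their adjusted p-values, and those of the other complement genes, were 0.218 or above. Within the protein C system, then, *Thbd* and *Pros1* had higher values and *Procr* had lower values in MKO, while *Proc* was at 0 counts in the BMDMs.

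In whole liver all 40 members were tested, with the differences taken between livers labelled MKO and f/f. *C8g* was higher, and *C6*, *C3* and *F3* were lower in livers labelled MKO at an unadjusted p under 0.05: 3 of 21 complement and 1 of 19 coagulation members, against 10.5% of the 15062 genes tested (5.18% lower, 5.27% higher). *F3* alone also differed at least 2-fold, against 1.55% of all genes. No member and no gene passed an adjusted p of 0.05 in edgeR (lowest 0.0634). DESeq2 called *F3*, *C8g* and *C6* at an adjusted p under 0.05, 3 members, against 2.04% of 13009 genes. The groups did not overlap for *C6* and *C8g* among the complement members and for *F3*, *Plg*, *F5* and *Proc* among the coagulation members, against 17.3% of all genes.

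The median log2 fold change was −0.17 over the complement members, 15 of which were below 0, and −0.16 over the coagulation members, with 13 below 0. Over all genes the median was −0.01 and 50.9% were below 0. Without f/f library 1, 14 complement members stayed below 0, and the coagulation members were divided into 9 below and 10 above 0.

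**Figure D3:**
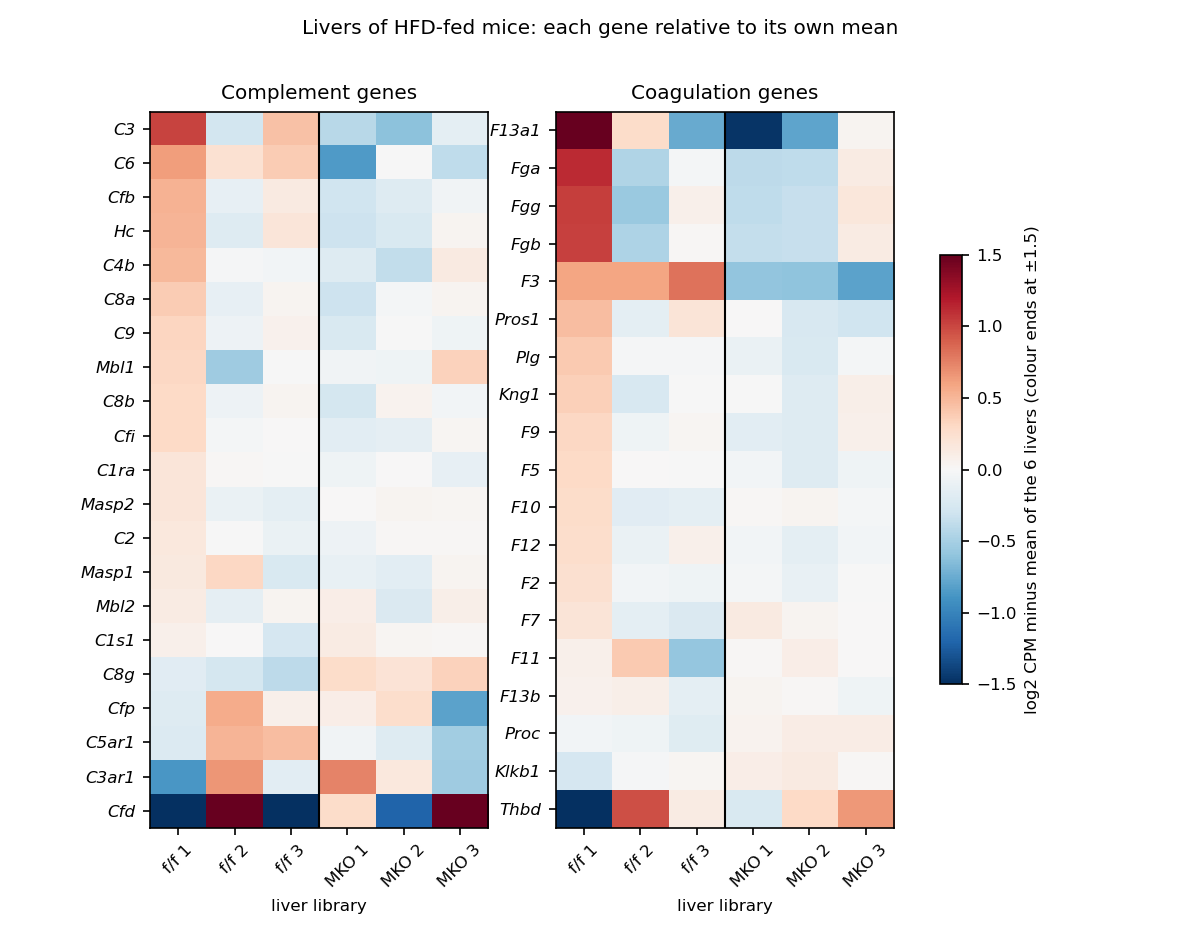
Log2 CPM of each member in each of the 6 livers minus its own mean over the 6 livers, for the complement (left) and coagulation (right) genes, with red above and blue below the mean and colours that end at ±1.5. The first column, f/f library 1, is the highest of the 6 for 13 of 21 complement and 13 of 19 coagulation genes, while *F3*, *C6* and *C8g* separate the 3 columns of each genotype label.

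The terminal components, which form the membrane attack complex, were divided. *C8g* (chr2:25498651-25501719, minus strand), the gamma chain of C8, had 163, 153 and 140 CPM in livers labelled f/f and 221, 212 and 233 CPM in livers labelled MKO. The groups were separate, with a narrow spread in each. Between 152.2 ± 11.6 and 222.2 ± 10.4 CPM the log2 fold change was 0.55 (SE 0.10, adjusted p = 0.303 in edgeR, rank 44 by p among the 15062 genes tested in liver). The other C8 chains, *C8a* and *C8b*, had log2 fold changes of −0.20 (SE 0.17) and −0.17 (SE 0.14). Per kilobase of exon the ratio of *C8g* to *C8a* was 0.310, 0.412 and 0.336 in f/f and 0.676, 0.533 and 0.556 in MKO, while that of *C8b* to *C8a* lay between 0.451 and 0.507 in all 6 livers.

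*C6* (chr15:4727175-4814967) had 486.9, 369.0 and 412.6 CPM in livers labelled f/f and 175.3, 315.6 and 242.5 CPM in those labelled MKO. Every liver labelled MKO was below every liver labelled f/f. The means were 422.8 ± 59.6 and 244.5 ± 70.2 CPM, and the log2 fold change was −0.79 (SE 0.22, adjusted p = 0.347 in edgeR, rank 425). *Hc*, which encodes C5, had 1655, 1010 and 1317 CPM in f/f and 937, 991 and 1189 CPM in MKO. These groups overlapped, with 1327 ± 322.7 against 1039 ± 132.6 CPM, which is −0.35 on the log2 scale (SE 0.20, adjusted p = 0.581 in edgeR). It was −0.18 without f/f library 1 and −0.52, at an unadjusted p of 0.0164, without f/f library 2. *C9* had a log2 fold change of −0.21 (SE 0.14).

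*C3* had 20350, 8300 and 13650 CPM in livers labelled f/f and 7540, 6587 and 9134 CPM in those labelled MKO. The groups overlapped, and f/f library 1 was the highest. The means were 14100 ± 6036 and 7754 ± 1287 CPM, at a log2 fold change of −0.86 (SE 0.32, adjusted p = 0.436 in edgeR, rank 1120). This unadjusted call was kept in 2 of the 6 fits that left out a library (not without f/f library 1 or 3 or MKO library 1 or 2), and without f/f library 1 the log2 fold change was −0.52. *Cfb* had 1618, 1037 and 1242 CPM in f/f and 915, 987 and 1091 CPM in MKO. Only f/f library 2 lay among the livers labelled MKO. Its means were 1299 ± 294.4 and 997.4 ± 88.6 CPM, with a log2 fold change of −0.38 (SE 0.18, adjusted p = 0.511 in edgeR). It was −0.20 without f/f library 1 and −0.52, at an unadjusted p of 0.0138, without f/f library 2.

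**Figure D4:**
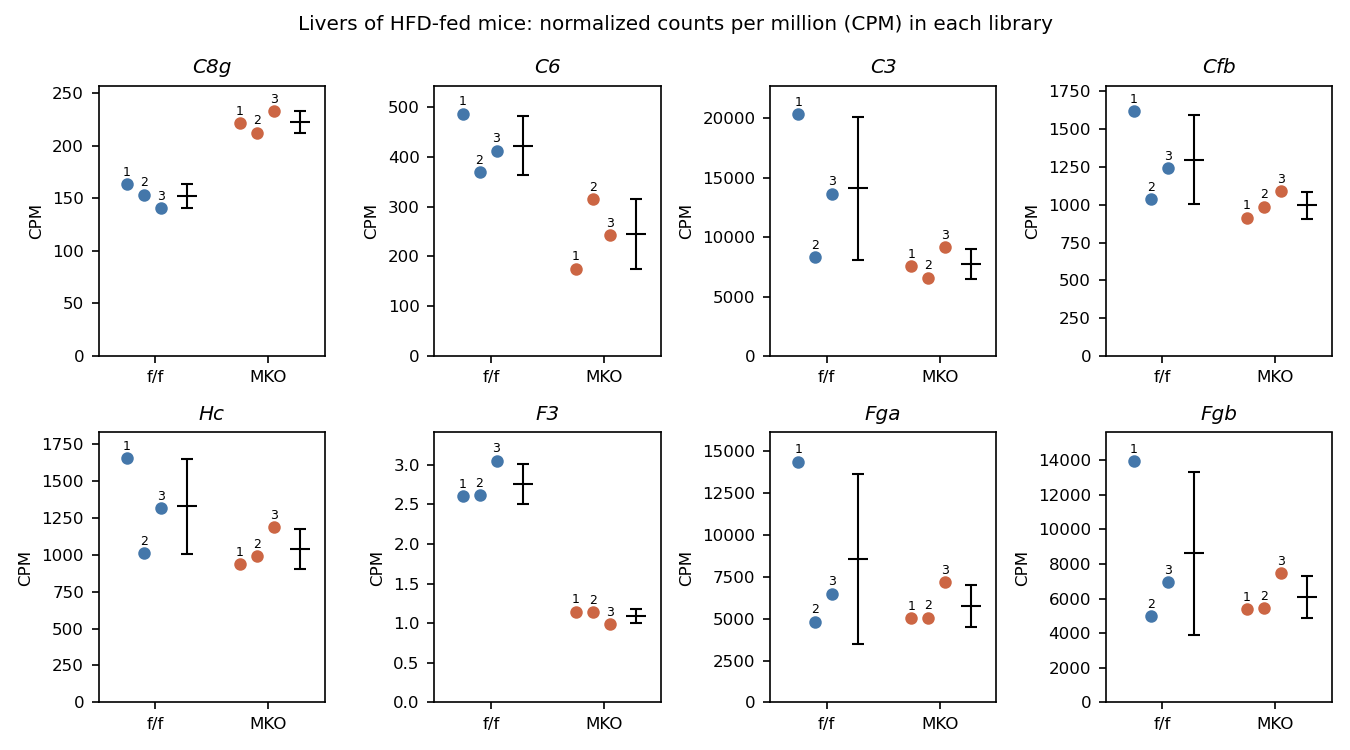
Normalized CPM in each liver library for 8 complement and coagulation genes, with the 3 livers labelled f/f on the left and the 3 labelled MKO on the right of each panel (small digits give the library number), and the group mean with its SD as a black bar beside the points. *C8g* lies at 140–163 CPM in f/f and 212–233 CPM in MKO, and *Fga* and *Fgb* are highest in f/f library 1.

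The recognition and early-protease genes of the classical and lectin pathways differed little in liver. *C1ra*, *C1s1*, *C2*, *C4b*, *Masp1*, *Masp2*, *Mbl1* and *Mbl2* had log2 fold changes between −0.29 (*C4b*, SE 0.20) and 0.13 (*Mbl1*, SE 0.23), and all of their groups overlapped. The receptors *C3ar1* and *C5ar1*, low in whole liver at 1.76–5.42 and 1.27–2.59 CPM, had 0.20 (SE 0.47) and −0.53 (SE 0.31). *Cfd*, the factor D protease that adipocytes make in quantity, was uneven between livers of the same label: 0.372, 6.92 and 0.299 CPM in f/f and 1.84, 0.667 and 13.5 CPM in MKO. Its log2 fold change of 1.05 had an SE of 1.46.

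*F3* was the coagulation member with the lowest p in liver. It had 2.61, 2.62 and 3.05 CPM in livers labelled f/f and 1.15, 1.14 and 0.991 CPM in those labelled MKO. The groups were separate at a low level, at most 95 counts in a library. The means were 2.76 ± 0.254 and 1.09 ± 0.0884 CPM and the log2 fold change was −1.33 (SE 0.25, adjusted p = 0.314 in edgeR, rank 52). *F3* was thus lower in MKO than in f/f in both tissues by the labels, and the difference of its effects is given at the end.

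Prothrombin, *F2*, had 1935, 1598 and 1572 CPM in f/f and 1605, 1514 and 1638 CPM in MKO. Its groups overlapped, with means of 1702 ± 202.2 and 1586 ± 64.4 CPM, which is −0.10 on the log2 scale (SE 0.13, adjusted p = 0.833 in edgeR). The fibrinogen chains varied together from liver to liver. *Fgb* had 13950, 4981 and 6972 CPM in f/f and 5387, 5431 and 7479 CPM in MKO. Liver f/f library 1 was far above the other 5, which lay between 4981 and 7479 CPM. The means were 8635 ± 4711 and 6099 ± 1195 CPM and the log2 fold change was −0.50 (SE 0.38, adjusted p = 0.697 in edgeR), against 0.02 without that library and −0.78, at an unadjusted p of 0.0447, without f/f library 2. Per kilobase of exon, the ratio of *Fga* to *Fgb* was between 1.18 and 1.31 and that of *Fgg* to *Fgb* between 1.04 and 1.15 in the 6 livers. The coagulation members together took 2.22–4.27% of the counts of a liver labelled f/f and 2.28–2.78% of a liver labelled MKO.

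The other clotting factors and their regulators had small differences. *Plg*, the precursor of the clot-dissolving plasmin, had 3476, 2626 and 2615 CPM in f/f and 2469, 2251 and 2596 CPM in MKO (log2 fold change −0.25, SE 0.16), and the nearest values of the groups were 2615 and 2596 CPM. *F5*, the cofactor of factor X, had a log2 fold change of −0.21 (SE 0.13), and *Proc*, protein C, one of 0.19 (SE 0.10), both with separate groups. *Pros1* had −0.36 (SE 0.17). *F7*, *F9*, *F10*, *F11*, *F12*, *F13b*, *Klkb1* and *Kng1* lay between −0.19 (*F9*) and 0.15 (*Klkb1*).

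*F13a1* had the largest log2 fold change of the members in liver, −2.07 (SE 0.94, adjusted p = 0.50 in edgeR), at 3.99, 0.744 and 0.365 CPM in f/f and 0.224, 0.357 and 0.637 CPM in MKO. Without f/f library 1 it was −0.48, and its unadjusted p was 0.0443 and 0.0215 without f/f library 2 or 3. The 4 monocyte markers, *F13a1* among them, summed to 4.08–22.2 CPM in livers labelled f/f and 2.18–4.04 CPM in those labelled MKO, and *Ccr2* and *Chil3* were lower at an unadjusted p under 0.05. The neutrophil markers summed to 6.77–73.9 and 8.58–15.2 CPM, with 1 of them lower at that threshold. The macrophage markers summed to 95.1–254.3 and 84.6–187.2 CPM and the hepatocyte markers to 75990–100700 and 93320–96400 CPM, with *Ttr* higher. The Kupffer cell markers summed to 216.5–513.7 and 194.2–434.4 CPM and the stellate and fibroblast markers to 29.8–263.1 and 98.3–144.3 CPM. *Dcn*, of the latter list, had 21.4 CPM in f/f library 1 and 61.3–168.2 CPM in the other livers. Their part in the liver results was not tested.

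The sample IDs of the livers begin with A (f/f libraries 1 and 2, MKO library 3) or B (f/f library 3, MKO libraries 1 and 2), and the labels do not say what the letter means. Within A and within B, the differences in log2(CPM + 0.5), MKO minus f/f, were 0.56 and 0.63 for *C8g*, −0.80 and −0.81 for *C6*, −1.06 and −1.11 for *F3* and −0.51 and −0.95 for *C3*. With the letter as a covariate the unadjusted p of *C3* was 0.0691. In a fit of all 12 libraries, where the spread is shared with the BMDMs, the unadjusted p-values of *C8g*, *C6* and *F3* were 0.127, 0.0767 and 0.0897.

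Of the other complement genes, 33 were tested in liver, and *C1rb* was lower (log2 fold change −0.32, SE 0.10) and *C1qbp* higher (0.35, SE 0.11) at an unadjusted p under 0.05. Of 27 other coagulation genes, only *Vkorc1*, an enzyme of the vitamin K cycle that clotting factors depend on, passed that threshold (0.26, SE 0.10). The called shares of these lists were 6.06% and 3.7%, below the 10.5% of all genes tested in liver. Neither *C1rb*, *C1qbp* nor *Vkorc1* reached a 2-fold difference.

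Whether the genotype difference of a member was another in liver than in BMDMs was tested with an interaction term in all 12 libraries. Of the 18 members tested in both tissue fits, 8 had an unadjusted p under 0.05. The joint fit tested all 40 members, also those too low in BMDMs to be tested there. In it these 8 were 4 of 21 complement (19%) and 4 of 19 coagulation members (21.1%), against 14.5% of 17246 genes. These member shares are lowered by the 5 complement and 9 coagulation members at 0 counts in every BMDM library. Those could not be called, with an unadjusted p of 0.9995 or above in edgeR. Among the 18 the share was 44.4%, and the share of all genes tested in both tissue fits is not given here. No member passed an adjusted p of 0.05 (lowest 0.126), whereas 1 of all genes, 0.00580%, did. *Cfb* had −3.04 in BMDMs and −0.38 in liver, a difference of 2.66 (SE 0.53, adjusted p = 0.126 in edgeR). The differences for *C2*, *C1ra* and *C1s1* were 1.59 (SE 0.45), 1.23 (SE 0.32) and 1.05 (SE 0.40), with the more negative effect in BMDMs for each. For *C2* the difference was 1.03 without BMDM f/f library 3, and for *C1s1* the unadjusted p was 0.0610 without BMDM f/f library 2 and 0.0561 without liver f/f library 3.

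The remaining 4 were coagulation members. *F10* had −2.24 in BMDMs and 0.01 in liver (difference 2.25, SE 0.73), and *Pros1* had 0.65 and −0.36 (difference −1.01, SE 0.26). *F13a1* had 1.29 and −2.07 (difference −3.37, SE 1.19) and *F9* had 1.75 and −0.19 (difference −1.96, SE 0.79). The difference for *F10* was 1.32 without BMDM f/f library 3, and that for *F13a1* was −1.82 without liver f/f library 1, at an unadjusted p of 0.0968. That for *F9* kept an unadjusted p under 0.05 in 6 of the 12 fits that left out a library, and not without BMDM f/f library 2, BMDM MKO library 1 or 2, liver f/f library 1 or liver MKO library 1 or 2. For *C3*, −1.56 and −0.86, the difference was 0.70 (SE 0.53, adjusted p = 0.578 in edgeR), and for *F3*, −3.32 and −1.33, it was 1.99 (SE 0.96, adjusted p = 0.371). Without BMDM f/f library 3 the differences for *C3* and *F3* were 0.31 and 0.37, and that for *F3* had an unadjusted p of 0.00792 and 0.0287 without BMDM f/f library 1 or 2. The count of 8 and these differences rest on the direction that the labels give the livers.

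**Figure D5:**
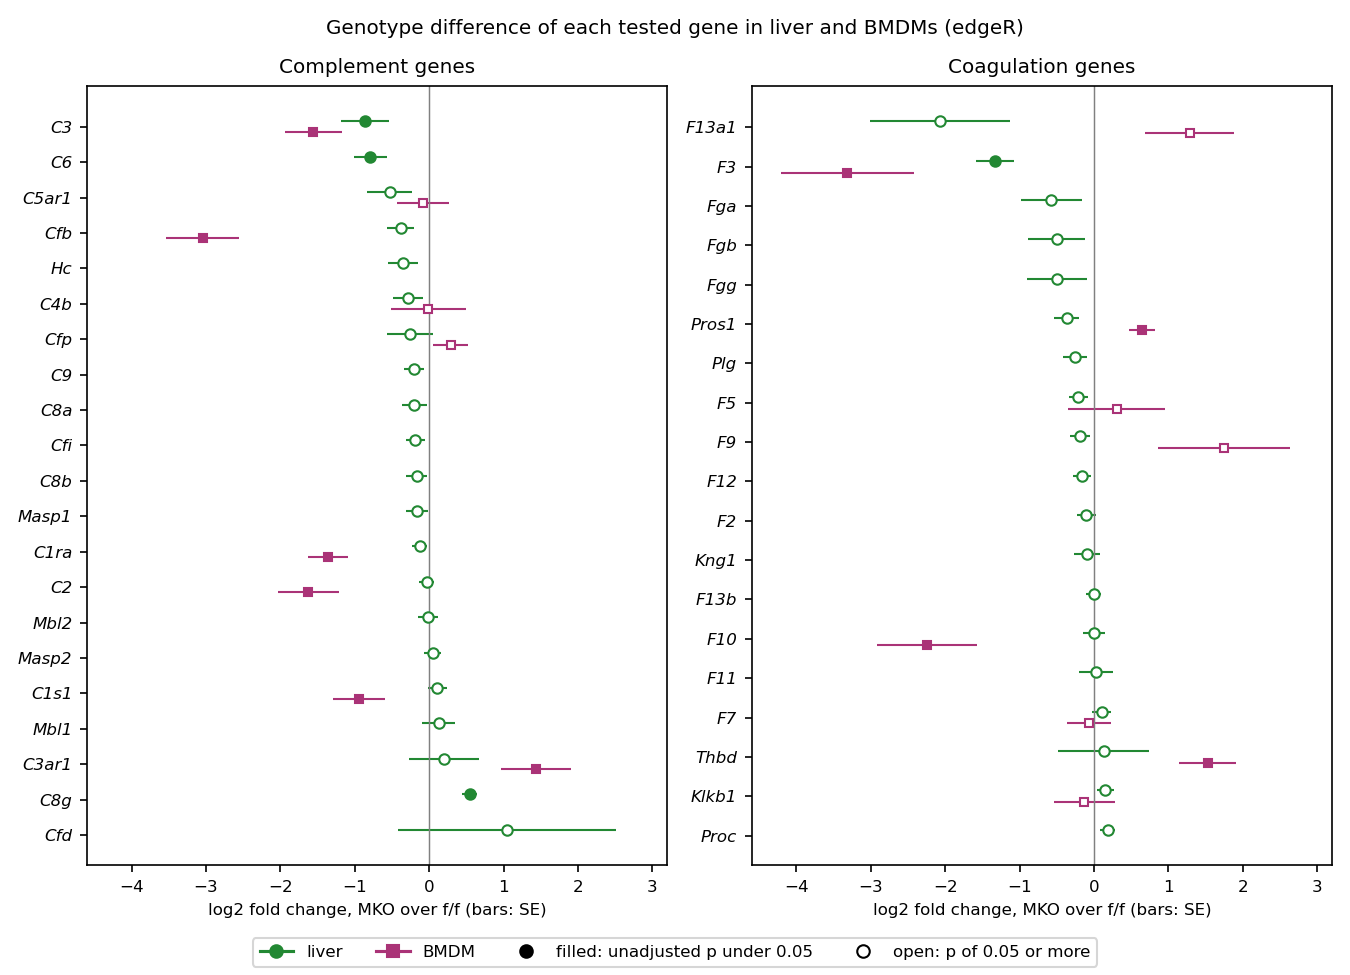
Log2 fold change (MKO over f/f) with its SE for each member tested in liver (circles) and in BMDMs (squares), complement genes on the left and coagulation genes on the right, filled where the unadjusted edgeR p was under 0.05. *Cfb*, *C2*, *C1ra* and *F10* lie at −3.04, −1.62, −1.36 and −2.24 in BMDMs and at −0.38, −0.03, −0.13 and 0.01 in liver, and the liver points stay between −0.86 (*C3*) and 1.05 (*Cfd*) apart from *F3* and *F13a1*.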

How the data were processed

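Gene counts of 12 mouse libraries were deposited by the authors as a table of raw, whole-number counts per gene. The submitters' processing notes name FastQC 0.11.2, STAR, StringTie and mm10 without their roles, the paper names Skewer for the reads, and the counting program is not given in the sources used here. Libraries were strand-specific; how strand entered the counting is not given either. The study's own test of differences, the MARS model of DEGseq, was not used.

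Groups followed the labels. Each tissue was fitted alone with edgeR 4.0.16 in R 4.3.3 (quasi-likelihood, robust, TMM, filterByExpr, limma 3.58.1 loaded), with Benjamini–Hochberg adjustment over its genes. An SE is the log2 fold change over the square root of F. Thresholds were an adjusted p of 0.05, an unadjusted p of 0.05 and a fold of 2. The scripts were tested on simulated data. Gene positions and exon lengths came from GENCODE M21 (GRCm38); promoters from the RefSeq table. Intervals given as 3 counts cover counting error only.

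Members and lists were chosen with earlier results of these data known. Full values were given for members with an unadjusted p under 0.05 and, whatever their p, for *C3*, *C5ar1*, *C3ar1*, *F3*, *Thbd* and *F13a1* in BMDMs and *C3*, *Hc*, *Cfb*, *F2*, *F3* and *Fgb* in liver. Of the other pathway genes, up to 8 per tissue past the study's thresholds were named, apart from some that are not reported here, and *C1qbp*, *C1rb* and *Vkorc1* in liver after their values were seen.

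Alternatives were other scalings (upper quartile, RLE), other filters (none, or a mean count of 50), a joint fit of both tissues, a replicate block, the letter covariate, DESeq2 1.42.0 and fits without each library. Figures were drawn with matplotlib 3.10.9 (python 3.11.15), from tables made with numpy 2.4.6 and pandas 2.3.3. Samples of patients were not used here.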

Additional observations from a re-analysis of the deposited data

How the results depend on the processing

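The 10 BMDM members and 4 liver members with an unadjusted p under 0.05 kept their direction under every alternative that was run, while the counts of genes past an adjusted p of 0.05 varied. In BMDMs this count was 0, and it was 150 with all 12 libraries in 1 fit, 1 with a replicate block, 1216 with DESeq2 and 0 to 13 when a library was left out (13 without f/f library 2, 2 without f/f library 3). In liver it was 0, and it was 1 without a filter, 266 with DESeq2 and 0 to 7 with a library left out (7 without f/f library 2, 2 without MKO library 3). For the difference between tissues it was 1, and it was 801 with DESeq2, 0 with a replicate block and 0 to 341 with a library left out (341, 62 and 16 without BMDM f/f libraries 2, 1 and 3). BMDM genes at an unadjusted p under 0.05 were 2756, and 1295 to 3982 with a library left out (1295 and 1510 without MKO libraries 1 and 2).

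Left-out libraries gave 4 to 6 complement and 3 to 6 coagulation members in BMDMs. In liver they gave 2 to 6 complement members (6 without f/f library 2) and 1 to 6 coagulation members (6 without f/f library 2; 2 without f/f library 1, f/f library 3 or MKO library 1). The fit of all 12 libraries gave 1 complement and 0 coagulation members in liver, and the coagulation count was 2 with a replicate block and 3 with DESeq2. The share of all liver genes at that threshold, 10.5%, is that of the main fit. Shares in the other fits are not given here, so these member counts have no background of their own. Medians ranged from −1.17 to −0.62 (BMDM complement; −0.62 without f/f library 2), −0.020 to 0.77 (BMDM coagulation; 0.77 without f/f library 2) and −0.25 to 0.0125 (liver coagulation; 0.0125 without f/f library 1). Among the members given with full values, the sign turned for BMDM *C5ar1* and liver *Fgb*. For *C5ar1* it turned with upper-quartile scaling (0.0019), without f/f library 3 (0.25) and without MKO library 2 (0.0461). Its range was −0.36 to 0.25 with a library left out. For *Fgb* the sign turned without f/f library 1 (0.0164), in a range of −0.78 to 0.0164. Several other members also changed sign with a library left out. Examples are BMDM *C4b* (−0.39 to 0.37) and liver *Thbd* (−0.33 to 0.82), *Fga* (−0.86 to 0.0125) and *Cfd* (−1.02 to 3.96). The cause was not tested.

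Same-numbered libraries were not treated as pairs, because the labels do not say that they were matched. The correlation of their deviations was 0.136, 0.027 and 0.113 in BMDMs and −0.066, 0.252 and −0.029 in liver. These values cannot show whether the libraries were paired, so the replicate block is a setting only. Depth limits *F3*, *F13a1*, *C3ar1* and *C5ar1* in liver and *F9* and *Klkb1* in BMDMs, and 3 libraries per group limit all comparisons.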
